A study of Mus musculus with 677 samples.

Results

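The 7 genes described here encode the mucin, the trefoil peptide and the co-secreted proteins by which intestinal goblet cells are recognised: Muc2, Tff3, Agr2, Fcgbp, Clca3, Zg16 and Spink4. They were chosen by name as known goblet cell genes, and all 7 were rows of the deposited table of 23420 genes. Their values were read in 677 libraries of 1 epithelial cell each, taken from the intestine of C57BL/6 mice and made with SMART-Seq2, which reads whole transcripts of cells sorted into wells. The cells came from mice with a knockout of Atg16l2, a homologue of the autophagy gene Atg16l1 (KO), and from wild-type mice (WT). Each cell name carries a run (1 or 2), a code M1 or M2 within its genotype, read here as an animal, and the authors' annotation as 1 of 9 cell types, with 80 to 87 cells for each animal and run. Age, sex, gut region and the kind of Atg16l2 allele are not given in the sources used here, and no other treatment is labelled. The Goblet annotation covered 70 cells: 21 from KO M1, 14 from KO M2, 13 from WT M1 and 22 from WT M2.

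Goblet cells are secretory epithelial cells that store mucus in granules and release it into the gut lumen, where it keeps bacteria away from the epithelium. Muc2 is the gel-forming mucin that builds the network of intestinal mucus, and Agr2 is a disulfide isomerase of the endoplasmic reticulum on which Muc2 production depends. Fcgbp, Clca3 and Zg16 are secreted into the mucus: Fcgbp binds within the mucin network, Clca3 is a protease that acts on mucus, and Zg16 is a lectin-like protein that binds the wall of Gram-positive bacteria. Tff3 is a trefoil peptide that helps injured epithelium to close. Spink4 belongs to the family of Kazal-type inhibitors of serine peptidases. The symbol Clca3 is an older name: RefSeq lists the gene as Clca1, while the rows named Clca1, Clca2 and Clca4 in the table are other members of its family.

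The RefSeq promoter table (GRCm38.p6) held 3 of the 7 genes, and the 250 bases before the start of each are shown. Whether the patterns marked in them bear on the levels of these genes was not tested. All 3 lie on the plus strand, Muc2 at chr7:141690090-141690339, Agr2 at chr12:35992675-35992924 and Fcgbp at chr7:28070986-28071235. Capitals mark matches, on either strand, to CAGCTG, an E-box letter pattern of the kind bound by the secretory factor ATOH1. They also mark CACCC, a pattern bound by KLF factors and read as GGGTG on the other strand. TATAAA, the letter pattern of a TATA box, is marked in the same way wherever it lies in the window.
Muc2: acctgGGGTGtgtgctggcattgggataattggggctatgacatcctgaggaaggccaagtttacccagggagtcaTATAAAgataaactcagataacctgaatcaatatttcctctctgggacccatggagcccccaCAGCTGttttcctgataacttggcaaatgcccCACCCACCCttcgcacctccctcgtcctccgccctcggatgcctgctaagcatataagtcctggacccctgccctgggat
Agr2: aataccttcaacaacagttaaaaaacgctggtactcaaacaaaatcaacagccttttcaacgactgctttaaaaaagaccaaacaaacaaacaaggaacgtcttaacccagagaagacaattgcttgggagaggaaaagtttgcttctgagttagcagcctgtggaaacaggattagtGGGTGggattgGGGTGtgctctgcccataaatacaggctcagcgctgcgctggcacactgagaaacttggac
Fcgbp: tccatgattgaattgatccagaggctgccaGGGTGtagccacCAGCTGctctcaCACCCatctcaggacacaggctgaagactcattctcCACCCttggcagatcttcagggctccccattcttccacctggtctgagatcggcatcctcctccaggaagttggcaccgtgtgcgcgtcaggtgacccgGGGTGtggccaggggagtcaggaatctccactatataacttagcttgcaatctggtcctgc
CAGCTG occurred 1 time in the Muc2 window, 1 time in the Fcgbp window and 0 times in the Agr2 window. Of 32851 promoter windows of the same length, 13% held it. CACCC occurred 3 times before Muc2 (2 of them share a base), 2 times before Agr2 and 4 times before Fcgbp, and 52% of all windows held it. TATAAA occurred 1 time, before Muc2, and in 12.4% of all windows. The ATOH1 variant CAGATG (14.4% of windows) and the FOXA pattern TGTTTAC (3.17%) had no match in the 3 windows. The files name no genome build for their own reads, so no other coordinates are given.

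The deposited values were TPM, a relative transcript abundance corrected for transcript length that sums to the same total in every cell, so that depth per cell is unknown and genes can be compared within a cell. Goblet cells had 4094 to 8965 genes above 0 TPM (median 5816.5), with a median of 5478 in KO M1, 5917 in KO M2, 6406 in WT M1 and 5855.5 in WT M2. No 2 cells had identical profiles (0 of 677). No KO cell had Atg16l2 above 0 TPM (a count of 0 allows a share of up to 0.877%), whereas 38 WT cells did (11.3%). Among Goblet cells it was above 0 in 0 of 35 KO and 2 of 35 WT cells. The Goblet annotation was checked with 12 goblet markers other than the 7 genes, and all 12 had their highest mean level in Goblet cells. Their summed level there was 4603 and 5612 TPM in KO animals and 6943 and 5591 TPM in WT animals, with at most 577.3 TPM in any animal for another type. Listed at 0 in Goblet cells were 4 of 8 enteroendocrine, 2 of 5 tuft and 3 of 5 T cell markers. So were 1 of 4 B and plasma cell, 1 of 4 myeloid and 5 of 7 stromal, endothelial and red cell markers. Those at 0 included Chga, Chgb, Trpm5, Cd3e, Cd79a, Csf1r and Pecam1. In that order the lists summed to 12.6, 0.44, 1.02, 4.93, 5.92 and 31.7 TPM there, as means of 4 animals. All 7 enterocyte (1104 TPM), 6 stem cell (305.5 TPM), 5 proliferation (527.3 TPM) and 10 Paneth cell markers were detected. Paneth markers summed to 103209 and 1946 TPM in Goblet cells of KO M1 and KO M2, and to 20034 and 3637 TPM in those of WT M1 and WT M2. The cells behind these sums are described below.

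The 7 genes were among the most abundant transcripts of Goblet cells. Zg16 ranked 2nd of all genes by mean level, Tff3 3rd, Agr2 4th, Spink4 7th, Fcgbp 13th, Muc2 15th and Clca3 18th. Over the 4 animals Zg16 averaged 57998 ± 16644 TPM (SD, n = 4 animals, as for the other members), Tff3 27162 ± 7684 TPM, Agr2 25239 ± 4085 TPM and Spink4 15100 ± 8461 TPM. Fcgbp averaged 6055 ± 1033 TPM, the mucin Muc2 itself 4919 ± 814 TPM and Clca3 3723 ± 909 TPM. The lectin Zg16 therefore stood above the mucin in every animal mean. Together the 7 genes took a mean of 13.8% of a Goblet cell's TPM (0.101 to 51.2% per cell). Animal means of this share were 12.97% (KO M1) and 10.6% (KO M2), against 18.6% in WT M1 and 13.9% in WT M2, so the KO animals were the lower ones. Without 6 cells with Paneth transcripts, described below, the share was 16.3% (KO M1) and 10.6% (KO M2), against 18.97% in WT M1 and 13.9% in WT M2, and the genotypes overlapped.

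**Figure D1:**
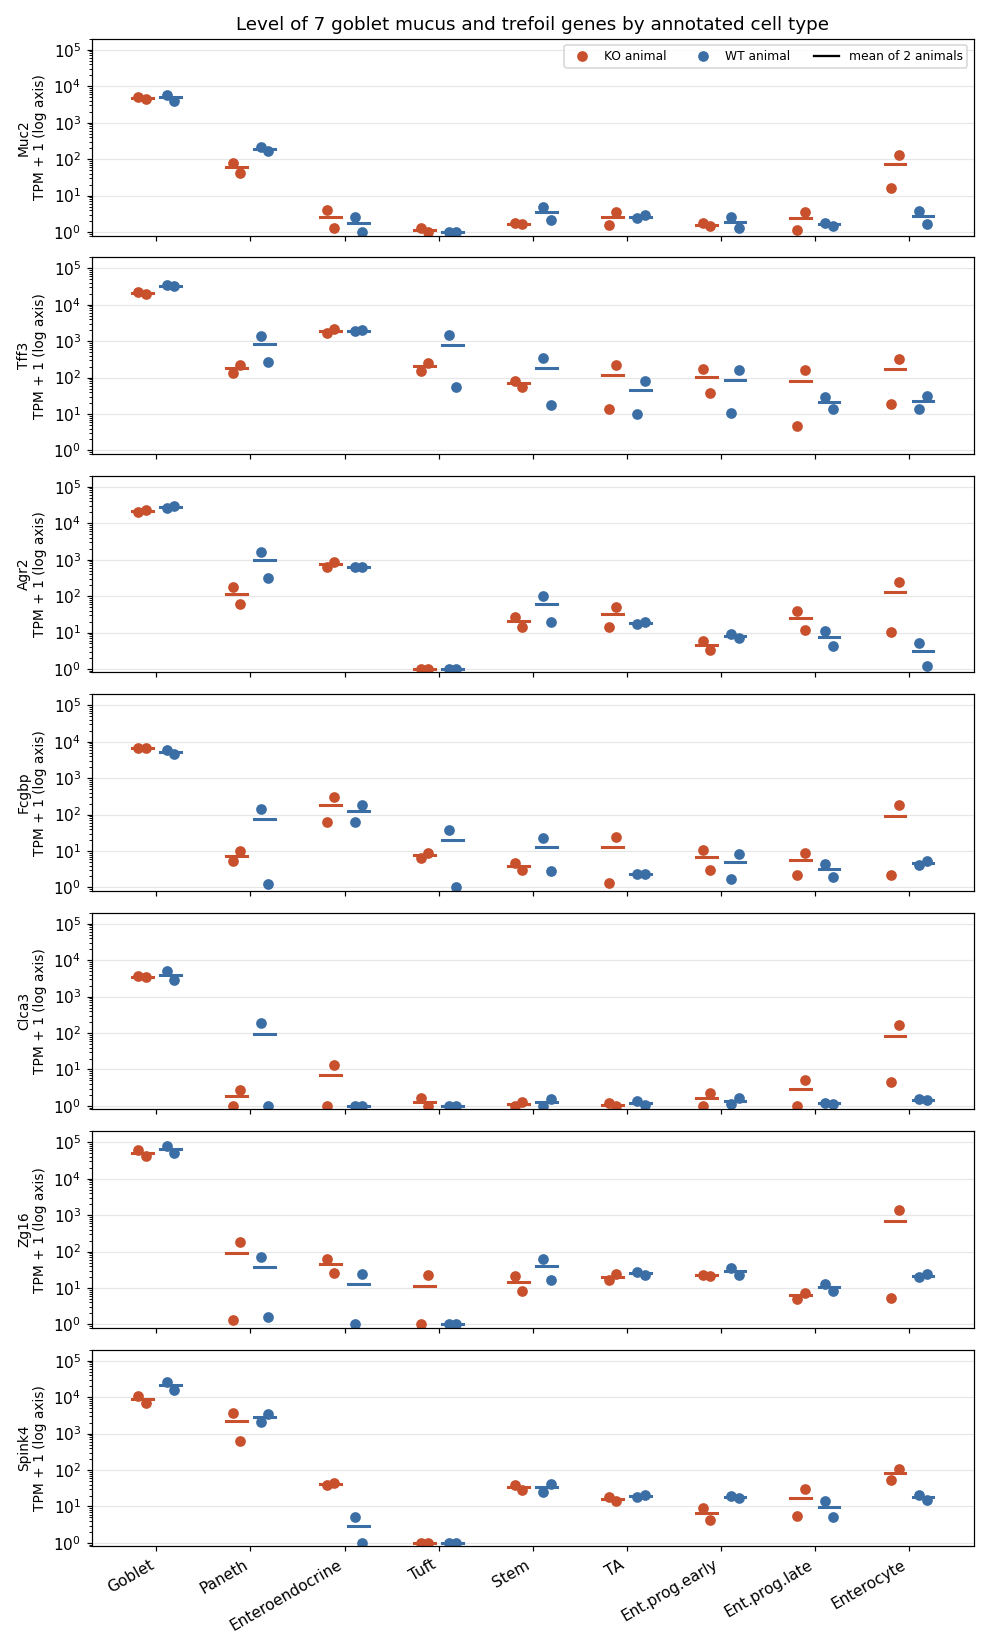
Mean TPM + 1 (log axis) of each of the 7 genes in the 9 annotated cell types; points are animals, KO left of WT, and bars are means of 2 animals. Goblet cells were highest for all 7 genes, Spink4 stood at a mean of 2496 TPM in Paneth cells, and Tff3 at 1913 TPM in Enteroendocrine cells.

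Goblet cells had the highest mean level of all 7 genes, and for each gene the range of the 4 Goblet animals did not overlap that of the next type. These levels carry no test, since the cell types were annotated from the same cells and the genes are goblet cell markers. Which type came next differed between genes. For the mucin Muc2 it was Paneth cells, the antimicrobial cells of the crypt base (127.1 ± 82.1 TPM, SD, n = 4 animals), and all 22 Paneth cells had Muc2 above 0 TPM (7.52 to 1019 TPM). Apart from Enterocyte cells (37.7 TPM), Muc2 averaged at most 1.61 TPM in every other type.

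Spink4 was the member with the smallest gap between Goblet cells and the next type. All 22 Paneth cells held Spink4, from 304.4 to 12947 TPM. Animal means were 3773 TPM (KO M1) and 638.3 TPM (KO M2), against 2058 TPM in WT M1 and 3515 TPM in WT M2. These means rest on 4, 3, 6 and 9 cells in that order. In KO M1 a single cell held 12947 TPM, and the others held 546.3 to 858.5 TPM. The mean of Spink4 was 6.05-fold higher in Goblet cells than in Paneth cells. The gap was 14.2-fold for Tff3 over its own next type and 36.95-fold or more for the remaining 5 genes. Paneth cells in turn did not overlap the next type for Spink4, Enterocyte cells at 48.98 ± 43.4 TPM. Spink4 was listed at 0 in all 7 Tuft cells, which allows a share of up to 42.9% of such cells.

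By mean level Tff3 and Agr2 came next in Enteroendocrine cells, the hormone-secreting type. Tff3 averaged 1913 ± 206.1 TPM there and was above 0 TPM in 26 of 32 cells, or 81.2% (exact 95% binomial interval 63.6 to 92.8%). Its animal means were 1654 and 2123 TPM in KO (5 and 15 cells) and 1851 and 2023 TPM in WT (9 and 3 cells). By medians over the cells of each animal, averaged over the animals, Tff3 was higher in the 7 Tuft cells (496.0 TPM) than in Enteroendocrine cells (279.1 TPM). In Stem cells Tff3 was above 0 TPM in 14 of 96 cells (14.6%, exact interval 8.21 to 23.3%). Agr2, the disulfide isomerase, averaged 683 ± 115.3 TPM in Enteroendocrine cells with 12 of 32 cells above 0 TPM. In Paneth cells it averaged 552.9 ± 752.6 TPM, so that these types overlapped. The overlap came from a single WT M1 Paneth cell at 9104 TPM, described below. Without that cell the Paneth mean was 181.3 TPM. The highest Paneth animal (WT M2, 307.3 TPM) then lay under the lowest Enteroendocrine animal (613.3 TPM). Agr2 was listed at 0 in all 7 Tuft cells, whereas Tff3 was above 0 TPM in 4 of them. Intervals and limits of this kind cover counting error only.

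The mucus-binding protein gene Fcgbp came next in Enteroendocrine cells as well (151.7 ± 116.1 TPM, 22 of 32 cells above 0 TPM). The protease gene Clca3 was seldom detected outside Goblet cells, being above 0 TPM in 4 of 22 Paneth cells, 6 of 58 Enterocyte cells and 2.86% of TA cells. Zg16 was above 0 TPM in 25% of Stem cells, 24.6% of TA cells and 30.99% of Enterocyte.prog.early cells, at type means of 26.6, 21.9 and 24.6 TPM. Of the 546 cells annotated as Stem, TA or 1 of the 3 enterocyte types, 26.9% held none of the 7 genes and 58.6% held at most 1.

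Single cells set several of the levels outside Goblet cells. One KO M2 Enterocyte cell held all 7 genes, with 22619 TPM of Zg16, 5441 TPM of Tff3, 4115 TPM of Agr2, 3093 TPM of Fcgbp, 2726 TPM of Clca3, 2245 TPM of Muc2 and 1642 TPM of Spink4. Their sum was 4.19% of its TPM, which lies inside the range of Goblet cells. This cell held 96.1% of all Zg16, 97.8% of all Clca3 and 90.3% of all Muc2 TPM summed over the 58 Enterocyte cells. Without it the mean Enterocyte level of Zg16 over the animals was 15.9 TPM, against 348.3 TPM with it, and that of Muc2 was 4.68 TPM, against 37.7 TPM with it. One WT M1 Paneth cell likewise held all 7 genes (9104 TPM of Agr2 and 7426 TPM of Tff3) and only 2.61% Paneth marker TPM, and it held 99.5% of the Clca3 of the 22 Paneth cells. Of the 607 cells that were not annotated Goblet, 3 held all 7 genes and 6 had over 1% of TPM in them, compared with 65 of 70 Goblet cells over 1%.

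Within the Goblet annotation the members differed in how evenly they were expressed. All 70 cells held Muc2, Tff3, Agr2, Fcgbp and Spink4, 49 held all 7 genes, 13 held 6 and 8 held 5. Zg16 was listed at 0 in 17 cells and Clca3 in 12. Zg16 was spread most widely: 26 cells had under 100 TPM, 12 had 100 to 10000 TPM and 32 had 10000 TPM or more, up to 365493 TPM in a KO M1 cell. The SD of log2(TPM + 1) among cells of the same animal and run was 7.04 for Zg16 and 4.94 for Clca3, against 1.63 for Tff3 to 2.46 for Muc2 among the other 5. The lectin and the protease were mostly high in the same cells, since 41 cells had at least 100 TPM of both, 17 of neither, 9 of Clca3 alone and 3 of Zg16 alone. Tff3 and Agr2 were at 10000 TPM or more in 58 and 59 of the 70 cells.

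**Figure D2:**
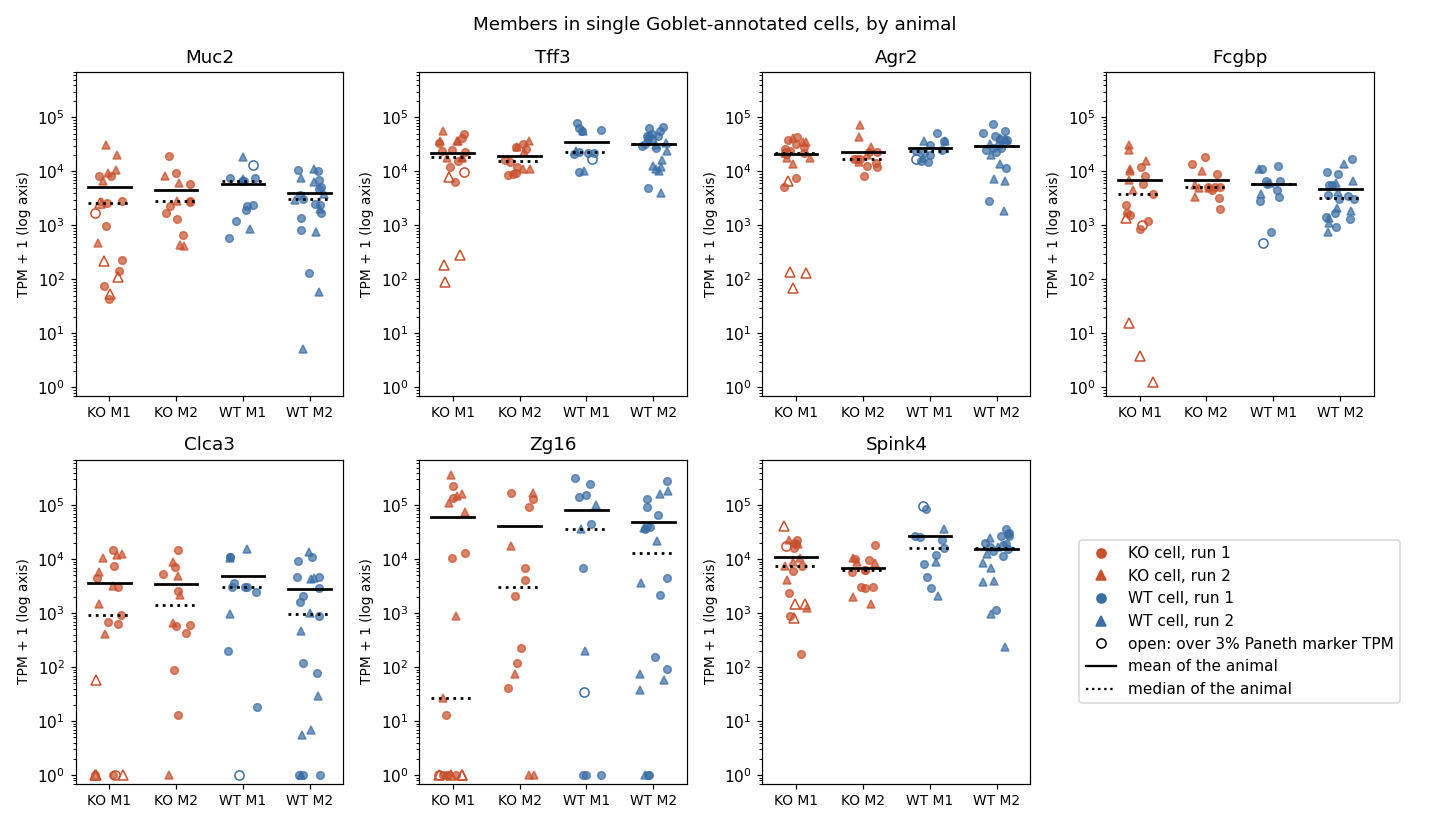
TPM + 1 (log axis) of the 7 genes in each of the 70 Goblet-annotated cells, by animal with KO left of WT; solid bars are animal means, dotted bars medians, marker shapes the runs, and open markers the 6 cells with over 3% of TPM in Paneth markers. Zg16 covers the widest range, from 0 to 365493 TPM, and 3 open KO M1 cells lie lowest for Tff3 and Agr2.

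For Zg16, whose cells spread so widely, the mean and the median of an animal stood far apart. Its mean TPM reached 59794 (KO M1) and 42123 (KO M2), against 80478 in WT M1 and 49600 in WT M2. Its median TPM reached 26.1 (KO M1) and 3076 (KO M2), against 35921 in WT M1 and 13083 in WT M2. Both KO medians lay below both WT medians, whereas the means overlapped. Without the 6 cells described next, the median in KO M1 stood at 11977 TPM, against 39952 TPM in WT M1, and KO M2 and WT M2 stayed as above, since they held none of those cells, and both KO medians were still the lower ones. The share of cells with at least 100 TPM of Zg16 was then 62.5% (KO M1) and 71.4% (KO M2), against 75% in WT M1 and 68.2% in WT M2, and the genotypes overlapped.

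In 6 Goblet-annotated cells over 3% of TPM came from the 10 Paneth markers, and 5 of these were from KO M1 and 1 from WT M1. The other 64 Goblet cells had a median of 0.122% and at most 2.28%, and cells annotated Paneth had 2.61 to 59.9%. Of the 4 such KO M1 cells in run 2, 3 had 51.8 to 55.2% Paneth marker TPM and only 0.101 to 0.210% in the 7 genes, with 89.8 to 276.7 TPM of Tff3, 0.24 to 14.4 TPM of Fcgbp and no Zg16 or Clca3. These 3 cells stood in the range of cells annotated Paneth for both measures. The remaining 3 cells held both kinds of product. A KO M1 cell had 43.3% Paneth marker TPM with 41752 TPM of Spink4 and 2650 TPM of Muc2, and the WT M1 cell had 23.3% with 94832 TPM of Spink4, the highest Spink4 value of any cell, and 13207 TPM of Muc2. Zg16 was listed at 0 in all 5 of the KO M1 cells and stood at 34.4 TPM in the WT M1 cell. Whether such libraries hold more than 1 cell was not tested, and the genotype comparison in Goblet cells is therefore given with and without them.

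**Figure D3:**
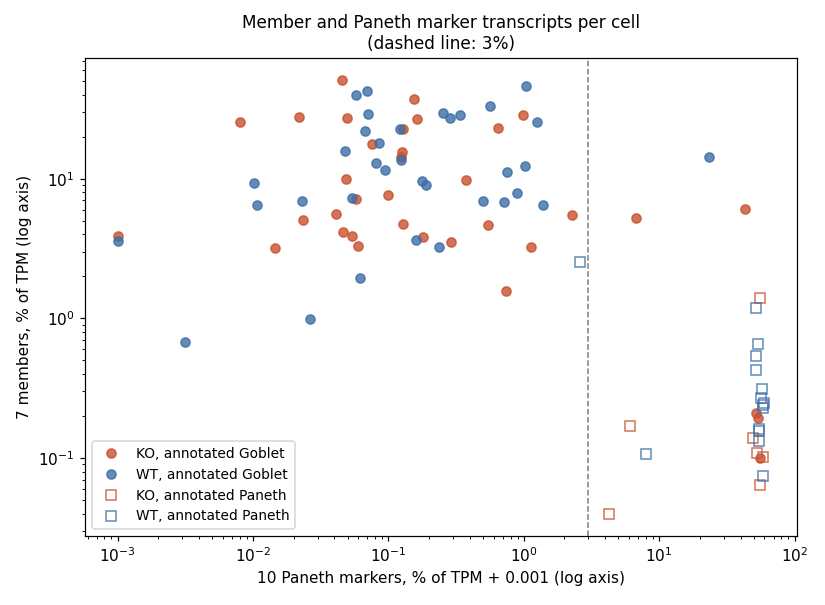
Share of TPM in the 7 genes (vertical, log axis) against the share in 10 Paneth markers plus 0.001 (horizontal, log axis) for each cell annotated Goblet (filled) or Paneth (open), KO in red and WT in blue. Right of the dashed line at 3% lie 6 Goblet-annotated cells, and 3 of them, from KO M1, lie among the Paneth-annotated cells with at most 0.210% in the 7 genes.

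From cell to cell the 7 genes varied together. Over the 70 Goblet cells, with the mean of each animal and run subtracted, the 21 pairs of members had a median Spearman correlation of 0.70 (0.34 to 0.86). Over all pairs of the 5901 genes above 0 TPM in at least 50% of Goblet cells, the median was 0.0998 and the 99th percentile 0.465. These are descriptions over cells that share animals, runs and library composition, and each gene's TPM is a share of the same total. The closest pair was the trefoil peptide with the mucus-binding protein, Tff3 and Fcgbp (0.86), followed by Tff3 and Zg16 (0.82) and by Clca3 and Zg16 (0.80). Over these 70 cells Spink4 was least tied to the rest, with a mean of 0.53 over its 6 pairs, against 0.75 for Tff3. Its correlation was 0.34 with Clca3 and 0.45 with Fcgbp, but 0.79 with Muc2. Within single animals the 21 pairs had a median of 0.704 (KO M1) and 0.644 (KO M2), against 0.530 in WT M1 and 0.60 in WT M2 (13 to 22 cells each). Without the 6 cells with Paneth transcripts the median was 0.683 over 64 cells. Agr2 then stood at 0.369 to 0.563 with the other members and Spink4 at 0.407 to 0.769. Which member was least tied to the rest thus depended on these cells. The closest pair was then Tff3 with Zg16 (0.845), and in the 70 cells with no means subtracted it was Clca3 with Zg16 (0.816).

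**Figure D4:**
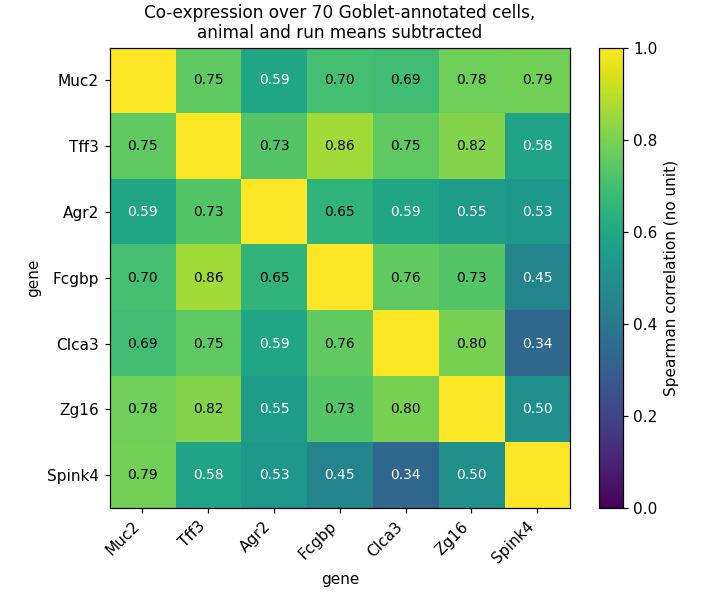
Spearman correlation of log2(TPM + 1) between each pair of the 7 genes over 70 Goblet-annotated cells, with animal and run means subtracted; colour runs from 0 to 1. Spink4 stands at 0.34 to 0.58 with every member but Muc2 (0.79), Agr2 with Zg16 is also low at 0.55, and Tff3 with Fcgbp is highest at 0.86.

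The summed share of the 7 genes also ran with other measures of these 70 cells. It was higher in cells with a higher summed level of the 12 other goblet markers (Spearman 0.91) and of 7 enterocyte markers (0.69), and lower in cells with more of 6 stem cell markers (-0.49) and 5 proliferation markers (-0.42). Against the number of genes above 0 TPM in the cell it stood at -0.38. Among members, Zg16 had the lowest correlation with stem cell markers (-0.56) and Agr2 the one nearest 0 (-0.18). The 5 other genes with the highest mean correlation to the members were Klk1, a kallikrein peptidase (0.73), Bcas1 (0.71), Lypd8, a secreted protein that binds flagellated bacteria (0.71), Tpsg1, a tryptase (0.69), and Ifi27l2b (0.69). Lypd8 was itself abundant, at a mean of 4623 TPM over these cells.

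Across the 36 profiles of animal and cell type, the genes with the pattern most like each member differed by member. These Pearson correlations of log2(mean TPM + 1) were computed over 6900 genes and all of the genes named had their highest level in Goblet cells. Muc2 and Spink4 were both most like the chemokine gene Ccl6 (0.97 and 0.92). Clca3 was most like Bcas1 (0.95), Zg16 most like the secreted phospholipase gene Pla2g10 (0.89), and Fcgbp most like the calpain gene Capn9 (0.87). Agr2 was most like Ttc39a (0.89) and then Atoh1, the transcription factor of the secretory lineage (0.88). Tff3 was most like the mucin core glycosyltransferase gene Gcnt3 (0.83), again followed by Atoh1 (0.83). Between members the highest value was 0.93 for Muc2 with Spink4 and the lowest 0.55 for Tff3 with Spink4.

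The comparison of genotypes asked whether Goblet cells without Atg16l2 carried other levels of these genes. Spink4, Tff3 and Agr2 were lower in both KO animals than in both WT animals, Fcgbp was higher in both, and Muc2, Clca3 and Zg16 overlapped, but none of the 7 passed the test over all genes. Spink4 averaged 11029 TPM (KO M1) and 6995 TPM (KO M2), against 26591 TPM in WT M1 and 15784 TPM in WT M2. Tff3 averaged 22338 TPM in KO M1 and 19119 TPM in KO M2, against 35380 TPM in WT M1 and 31812 TPM in WT M2. The peptidase inhibitor and the trefoil peptide thus had KO animal means that lay wholly under the WT ones. Agr2 averaged 20809 TPM in KO M1 and 23138 TPM in KO M2, against 26970 TPM in WT M1 and 30038 TPM in WT M2. Fcgbp averaged 6836 TPM in KO M1 and 6861 TPM in KO M2, against 5845 TPM in WT M1 and 4678 TPM in WT M2. For the isomerase the gap between the groups was wider than the range within either, and for the mucus-binding protein the 2 KO animals were nearly equal.

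The mucin itself did not separate: Muc2 averaged 5208 TPM in KO M1 and 4560.4 TPM in KO M2, against 5896 TPM in WT M1 and 4013 TPM in WT M2. Clca3 averaged 3695 TPM in KO M1 and 3444 TPM in KO M2, against 4961 TPM in WT M1 and 2792 TPM in WT M2. In both genes the KO animals lay between the WT animals. The KO pair and the WT pair did not overlap for 4 of the 7 members, and for 35.8% of the 6208 genes tested (percentages of genes are over those that passed a filter on low values). Counted by direction, 3 members had both KO animals below, as had 20.1% of genes, and 1 had both above, as had 15.7% of genes. With 7 members these counts stand not far from the background.

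On the log2(TPM + 1) scale KO minus WT was -1.22 for Spink4 (SE 0.26), -0.70 for Tff3 (SE 0.17), -0.38 for Agr2 (SE 0.17), -0.33 for Zg16 (SE 0.23), -0.06 for Clca3 (SE 0.25), 0.0027 for Muc2 (SE 0.22) and 0.39 for Fcgbp (SE 0.19). limma with Benjamini-Hochberg adjustment over 6208 genes called 0 of the 7 members (adjusted p 0.501 for Spink4 and for Tff3, and 0.782 to 0.999 for the others). It called 0.0161% of all genes, that is 1 gene, with 6.07% of genes at an unadjusted p under 0.05. The called gene was Olfm4, a crypt base glycoprotein gene, at 67.4 and 48.8 TPM in KO Goblet cells, against 292.9 and 321.4 TPM in WT Goblet cells (-2.40, SE 0.31, limma adjusted p = 0.0225). The 6 stem cell markers, of which Olfm4 is 1, summed to 188.3 and 206.4 TPM in KO Goblet cells, against 383.3 and 444.0 TPM in WT Goblet cells. The 5 markers other than Olfm4 summed to 120.97 and 157.5 TPM in KO Goblet cells, against 90.4 and 122.6 TPM in WT Goblet cells, and overlapped. With KO M1 left out, the difference of Spink4 was -1.55, which rests on a single KO animal.

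**Figure D5:**
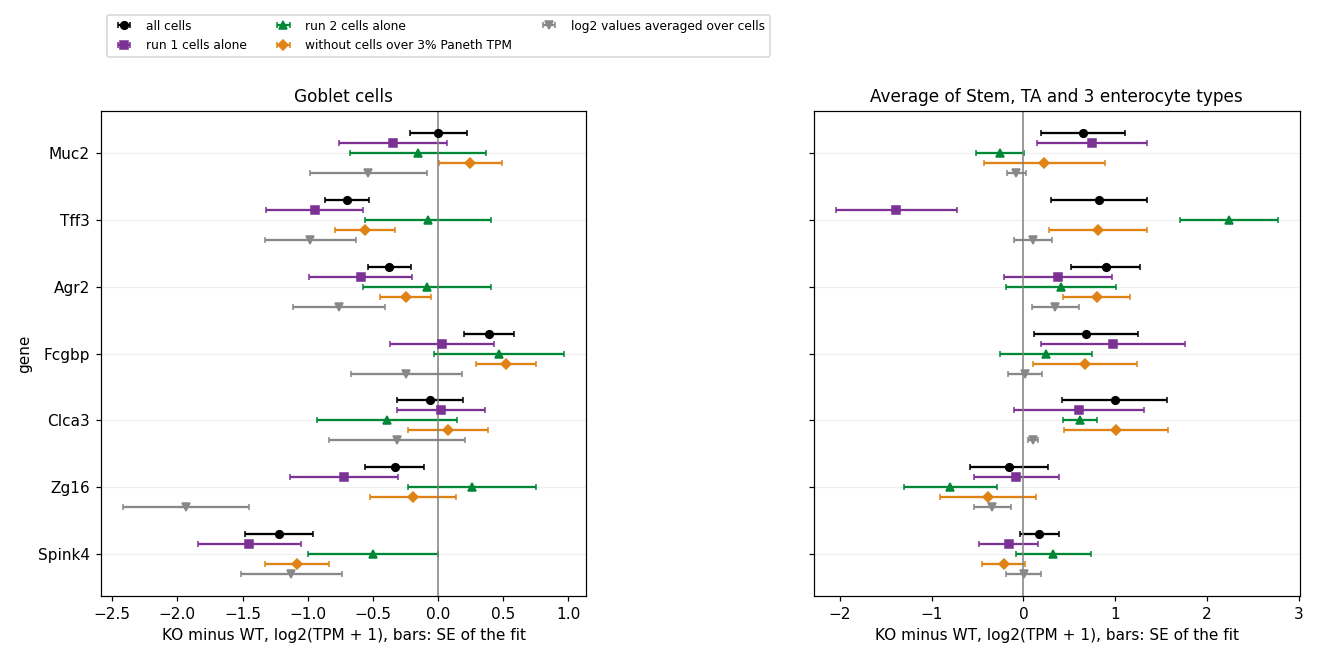
KO minus WT on the log2(TPM + 1) scale for each of the 7 genes in Goblet cells (left) and in the average of 5 other types (right); points are estimates from all cells, from each run, without cells of over 3% Paneth marker TPM, and from log2 values averaged over cells, and bars are SE of the fit. In the right panel, points of genes that did not pass the filter on low values come from fits over genes above 0 TPM in Goblet and in the other cells. These points are Clca3 in every setting shown, Muc2 in every setting but run 1 cells alone, and Fcgbp in run 2 cells alone. Spink4 lies below 0 in all 5 Goblet estimates (-1.45 to -0.50), and Zg16 ranges from -1.94 to 0.26.

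The gaps in Goblet cells were wider in run 1 cells than in run 2 cells for Spink4, Tff3 and Agr2. In run 1 cells Spink4 stood at 11241 and 7350 TPM in KO animals, against 29839 and 20645 TPM in WT animals, a log2 difference of -1.45. In run 2 cells it stood at 10836 and 6357 TPM in KO animals, against 15764 and 8764 TPM in WT animals (-0.50). In run 2 the genotypes overlapped for all 7 members. Tff3 differed by -0.95 in run 1, where the KO animals lay under the WT animals, and by -0.08 in run 2, where they overlapped. The same held for Agr2 (-0.59 in run 1 and -0.09 in run 2). Zg16 lay below both WT animals in run 1 (-0.72) and overlapped in run 2 (0.26). Fcgbp overlapped in either run, at 0.03 in run 1 and 0.47 in run 2. Run 2 held fewer Goblet cells for some animals, with 5 for KO M2 and 3 for WT M1, and a difference between the runs was not tested. The 11 run 2 Goblet cells of KO M1 included most of the cells with over 3% Paneth marker TPM. Some of these held only 89.8 to 276.7 TPM of Tff3 and 68.3 to 133.5 TPM of Agr2, which lowers the KO M1 means of run 2. Differences by run without these cells were not computed.

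With the 6 Goblet cells with Paneth transcripts left out, the gaps of Spink4, Tff3 and Agr2 were narrower and kept their direction, and that of Fcgbp was wider. Spink4 then stood at 10515 TPM (KO M1) and 6995 TPM (KO M2), against 20904 TPM in WT M1 and 15784 TPM in WT M2 (-1.08), so the groups still did not overlap. Tff3 stood at 28177 TPM in KO M1 and 19119 TPM in KO M2, against 36896 TPM in WT M1 and 31812 TPM in WT M2 (-0.56). Agr2 differed by -0.25, Zg16 by -0.19, Fcgbp by 0.52 and Muc2 by 0.25, and Clca3 turned to 0.077. Averaging log2 values over cells, which gives cells at 0 more weight, moved Zg16 to -1.94 (limma adjusted p = 0.0430, the lowest of its 20 alternatives) and turned Fcgbp to -0.24. Zg16 was the 1 member called under that setting, among 9 of 6208 genes called, 8 of them lower in KO. The median difference of all tested genes was then -0.169, against -0.0055 with the means.

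In the 5 other types with at least 10 cells per animal (Stem, TA and the enterocyte lineage in 3 stages), the members were low and their KO to WT differences rested on few cells. The mean of log2(TPM + 1) over the 5 types for Tff3 was 4.79 (KO M1) and 6.91 (KO M2), against 4.74 in WT M1 and 5.32 in WT M2, with the groups overlapping. For Agr2 it was 3.94 (KO M1) and 4.55 (KO M2), against 3.94 in WT M1 and 2.75 in WT M2, with KO M1 and WT M1 nearly equal. KO minus WT was 0.82 for Tff3 (SE 0.53), 0.90 for Agr2 (SE 0.38), 0.69 for Fcgbp (SE 0.57), -0.16 for Zg16 (SE 0.43) and 0.17 for Spink4 (SE 0.22). Muc2 and Clca3 did not pass the filter on low values, and in a fit without it they differed by 0.65 (SE 0.49) and 0.99 (SE 0.61), each at a limma adjusted p of 0.861. limma called 0 of the 5 members tested (Benjamini-Hochberg adjusted p 0.690 to 0.967), and 0.149% of 6689 genes, or 10 genes, with 7.21% at an unadjusted p under 0.05. Both KO animals lay above both WT animals for 1 of the 7, Clca3, as they did for 21.8% of genes, and the other 6 members overlapped, whereas 36.9% of genes had the genotypes apart in either direction.

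The single KO M2 Enterocyte cell with all 7 genes entered these averages. Once the top cell per gene was dropped from every animal and type, Tff3 differed by 0.093, Agr2 by 0.40, Fcgbp by 0.066, Clca3 by 0.12, Spink4 by 0.10, Zg16 by -0.89 and Muc2 by -0.28. Of the 7 differences 6 thus came to lie nearer to 0 or below it, and Zg16 farther from 0. Without KO M1, Tff3 differed by 1.88 and Fcgbp by 1.70, whereas without KO M2 they differed by -0.23 and -0.33, each time with a single KO animal. Tff3 differed by -1.39 in run 1 cells and by 2.24 in run 2 cells of these types. The difference of the genotype effect between Goblet cells and the 5 other types was -1.52 for Tff3 (SE 0.89), -1.40 for Spink4 (SE 0.66), -1.27 for Agr2 (SE 0.76) and -1.05 to -0.17 for the other 4. limma called 0 of the 5 members tested on this difference (adjusted p 0.997 each), and Muc2 and Clca3 stood at an adjusted p of 0.981 and 0.980 in a fit without the filter. Of 5700 genes it called 0, or 0%, with 3.56% at an unadjusted p under 0.05.

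Other genes of mucus production and related families were described in Goblet cells from 6 lists, and limma called no member of any list (Benjamini-Hochberg adjusted over 6208 genes). The median log2 difference of all tested genes was -0.0055. Of the other mucins and trefoil peptides, 9 of 11 were in the table and 2 passed the filter on low values. The membrane mucin Muc13 stood at 1174 and 1246 TPM in KO animals, against 1202 and 1246 TPM in WT animals, and was above 0 TPM in all 70 Goblet cells. Muc4, another membrane mucin, stood at 16.7 and 15.7 TPM in KO animals, against 11.8 and 17.3 TPM in WT animals. Tff1, the gastric trefoil peptide, and Muc1 were listed at 0 in all 70 Goblet cells, Tff2 was above 0 TPM in 1, and the gastric and airway gel mucins Muc5ac and Muc5b in 2 each. Muc2 was thus the gel-forming mucin with a level above 1 TPM among those listed. Relatives of Clca3, Agr2, Spink4 and Zg16 were low, with 10 of 15 in the table: Clca4 stood at 57.4 and 68.5 TPM in KO animals, against 83.2 and 97.2 TPM in WT animals, with both KO animals below (-0.51, SE 0.33, adjusted p = 0.884). Agr3 (-0.35) and Txndc12 (0.13) overlapped, and the list had a median of -0.17 over 4 tested genes. The row named Clca1 averaged 2.48 TPM.

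The mucin O-glycosylation list, enzymes that build the sugar chains of the mucin, had both KO animals above both WT animals for 7 of the 19 genes tested of 25, and below for 0, with a median of 0.21. The core 1 synthase gene C1galt1 stood at 67.9 and 101.7 TPM in KO animals, against 50.3 and 58.96 TPM in WT animals (0.60, SE 0.35). Gne, which makes the sialic acid precursor, stood at 117.7 and 159.05 TPM in KO animals, against 98.9 and 92.8 TPM in WT animals (0.51, SE 0.32). C1galt1c1, the chaperone of the core 1 synthase, differed by 0.14, and Gcnt3 by -0.04. The share of 7 in 19 is to be read against 15.7% of genes with both KO animals above, and no member of the list passed the test.

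Among the 12 genes tested of 17 other goblet products 1 lay above and 3 below, with a median of -0.10, near the 15.7% above and 20.1% below over all genes. Itln1, an intelectin that binds microbial sugars, stood at 3059 and 1569 TPM in KO animals, against 959.8 and 901.6 TPM in WT animals (1.24, SE 0.29, adjusted p = 0.501). Guca2a, the peptide guanylin, stood at 5335 and 5642 TPM in KO animals, against 8081 and 7674 TPM in WT animals (-0.52, SE 0.18, adjusted p = 0.606), and Lypd8 overlapped (-0.12). Of 15 goblet transcription factors, 2 lay above and 0 below (median 0.12), against the same 15.7% and 20.1% of all genes. Foxa2 stood at 35.1 and 31.8 TPM in KO animals, against 18.6 and 14.3 TPM in WT animals (0.99, SE 0.43). Bhlha15, a factor of secretory cell architecture, stood at 33.5 and 69.3 TPM in KO animals, against 27.9 and 27.7 TPM in WT animals (0.77, SE 0.42), while Elf3 (-0.07) and Xbp1 (0.12) overlapped. Of the 29 genes tested of 33 in the folding and secretion machinery, 5 lay above and 4 below (median -0.0014), again near those 15.7% and 20.1%. Sec61b, a subunit of the translocon, stood at 701.6 and 537.4 TPM in KO animals, against 972.1 and 1087 TPM in WT animals (-0.74, SE 0.24), and the retrieval receptor gene Kdelr3 differed by -0.77 (SE 0.29). The disulfide isomerase gene P4hb (-0.05) and the chaperone gene Hspa5 (-0.24) overlapped between genotypes.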

How the data were processed

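Single intestinal epithelial cells of Atg16l2 KO and WT mice were profiled by SMART-Seq2, and the protocol text mentions 10X Genomics too without saying for which cells. Per the submitters' processing notes, Bowtie, TopHat and RSEM were used, with no version; the genome build is not given in the sources used here. Values deposited by the authors are TPM, a column for each cell, with the same sum in every cell within rounding (999999.17 to 1000000.78), so depth is unknown and a value of 0 may be a missed transcript.

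Cell type, run and animal code were read from the labels' titles. The labels do not say that M1 and M2 are animals, nor whether a code is the same animal in both runs. Means over the cells of an animal were compared as log2(TPM + 1), 2 KO against 2 WT animals, with limma 3.58.1 (R 4.3.3; eBayes with trend, two-sided, adjusted p under 0.05), over genes with a mean of at least 10 TPM and above 0 in at least 10% of cells; members that did not pass took their values from a fit without this filter. P-values measure the spread between these animals, moderated by variance that eBayes shares over genes. An exact permutation test of 2 against 2 was not used, as it cannot go below p = 0.333. The fit was run on simulated data, in which cells of each type were redrawn across animals and changes were planted in 200 genes. Such data hold no spread between animals beyond that of drawing cells, so they cannot show how often this design calls genes falsely. No cell was removed and no doublet caller was run. Levels and correlations used Python 3.11.15 with scipy 1.17.1.

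The members, lists, markers and alternatives were chosen with earlier results of these data known. Named genes were the members, Atg16l2, called genes, from each of the 6 lists the 2 with the smallest p and the 2 with the highest level in Goblet cells, and the genes most like the members; relatives of the members outside this rule were named after their values were seen. Lists and markers overlap in part. Alternatives covered the pseudocount, filters, normalization, runs, blocks, cells left out and animals left out. In 2 alternatives added after the data were seen, animals were paired crosswise and TPM were rescaled to the sum of the other genes; levels without 2 high cells of other types, and levels and summed shares by animal without Paneth transcripts, and the stem marker sum without Olfm4 were added too.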

Additional observations from a re-analysis of the deposited data

How the results depend on the processing

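All 7 genes were highest in Goblet cells by medians as by means, and the median correlation of the members was 0.672 with pooled cells and 0.683 without cells with Paneth transcripts. In Goblet cells the differences of Spink4 (-1.60 to -0.50), Tff3 (-0.98 to -0.08) and Agr2 (-0.76 to -0.06) kept their direction in all 20 alternatives, with a limma adjusted p of 3.36e-09 to 0.964 for Spink4 and 0.00646 to 0.985 for Tff3, both lowest with the crossed pairs below. Medians over cells gave lower Goblet levels for all 7 genes. The drop was larger than the SD over animals for Muc2 (3789 TPM), Fcgbp (4539 TPM), Clca3 (1577 TPM) and Zg16 (13027 TPM). The precision is limited by 2 animals per genotype, by 3 to 13 Goblet cells per animal and run, and by an unknown depth per cell.

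The number of genes called in Goblet cells was 1, and it was 0 without the filter on low values, with quantile normalization, in run 1 alone, with 8 units of run and animal, with eBayes without trend, with the highest cell left out, without run 1 cells of KO M2 and with TPM rescaled to the other genes; 2 with a filter of 50 TPM, 5 in run 2 alone, 9 with log2 values averaged over cells and, with 1 animal left out, 25 without KO M1, 20 without KO M2, 2 without WT M1 and 0 without WT M2. In the average of 5 other types it was 10, and it was 0 without the filter, with log2 values averaged over cells, with 8 units, without trend and with the highest cell left out, 1 in run 1 alone and without cells with Paneth transcripts, 5 with a pseudocount of 0.1, 6 with a filter of 50 TPM and, with 1 animal left out, 192 without KO M1, 39 without KO M2, 5 without WT M1 and 1 without WT M2. For the difference between Goblet cells and the other types it was 0, and 1 with log2 values averaged over cells.

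Animals with the same number did not pair: their deviations correlated at 0.0663 in Goblet cells, -0.122 in the other types and 0.0721 for the difference. With the replicate number as a block, limma called 48, 58 and 0 genes, among them Spink4 (adjusted p = 1.83e-07) and Tff3 (0.0225) in Goblet cells and Tff3 (0.0320, with 0.00127 to 0.9996 over its alternatives) in the other types. With crossed pairs, added after seeing the data, it called 49, 23 and 0 genes. With either block little spread between animals is left to estimate, so these p-values rest mainly on variance shared over genes.

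Signs turned as follows, and the cause was not tested. In Goblet cells Muc2 (0.0027) was -0.54 with log2 values averaged over cells, -0.21 with quantile normalization, -0.34 in run 1, -0.15 in run 2, -0.25 with 8 units, -0.20 with the highest cell left out, -0.17 without run 1 cells of KO M2, and -0.27 to 0.28 with 1 animal left out. Clca3 was 0.024 in run 1, 0.077 without cells with Paneth transcripts and -0.48 to 0.35 with 1 animal left out, Zg16 was 0.26 in run 2, 0 with quantile normalization and -0.68 to 0.017 with 1 animal left out, and Fcgbp was -0.24 with log2 values averaged over cells. In the other types Muc2 was -0.076 with log2 values averaged over cells, -0.26 in run 2, -0.28 with the highest cell left out and -0.14 without run 1 cells of KO M2. Tff3 was -1.39 in run 1 and, with 1 animal left out, -0.23 (without KO M2) to 1.88, Fcgbp -0.33 (without KO M2) to 1.70, Spink4 -0.16 in run 1 and -0.22 without cells with Paneth transcripts, and Zg16 0.080 with a pseudocount of 10 and -0.92 to 0.61 with 1 animal left out. For the difference between them, Muc2 was 0.10 in run 2, 0.078 with the highest cell left out, 0.018 without cells with Paneth transcripts and -1.30 to 0.0074 with 1 animal left out, and Tff3 was 0.44 in run 1. Fcgbp was 0.22 in run 2, 0.26 with the highest cell left out, 0.082 without run 1 cells of KO M2 and -1.31 to 0.71 with 1 animal left out, and Zg16 was 0.22 with quantile normalization, 1.06 in run 2, 0.20 with 8 units, 0.53 with the highest cell left out, 0.19 without cells with Paneth transcripts, 0.24 without run 1 cells of KO M2 and -1.19 to 0.84 with 1 animal left out.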
